A study of Rattus norvegicus with 6 samples.

Results

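The cells described here are condensing spermatid-like cells of the rat testis, haploid germ cells late in the remodelling that turns a round cell into a sperm. They were chosen by a score on 3 genes, Prm2 (protamine 2, which packs sperm DNA), Hspa1l (a germ-cell member of the HSP70 chaperone family) and Slc30a4 (a zinc transporter). Each gene of 10 sets of 3 genes was standardised over all cells, the 3 values of a set were averaged, and each cell joined the set in which it scored highest. The set of Prm2, Hspa1l and Slc30a4 took 1667 of 11744 cells, or 14.2%. Because every gene of these cells counts as used by that choice, levels in them are compared with other cells as a description, with no test.

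The libraries came from the testes of SD rats, a strain of Rattus norvegicus bred for the laboratory, with 3 control animals and 3 animals exposed to a terrifying sound as a model of psychological stress, 1 library each. No genetic change, age or duration of the exposure is named in the labels used here, and p-values measure the spread between these libraries. The study addresses whether such stress disturbs sperm formation. Each library held 409 to 2506 cells and 16756543 to 114984746 counts, and the member cells contributed 13442385, 23714866 and 2831261 counts in control replicates 1, 2 and 3 and 3039560, 11279853 and 6776108 in stressed replicates 1, 2 and 3.

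In this step of spermiogenesis histones are first replaced by the transition proteins and then by protamines, the nucleus shrinks and transcription ends. Messenger RNAs for late proteins are made beforehand, stored with RNA-binding proteins and translated only as the tail, its mitochondrial sheath and the condensed head are built. Genes switched on in spermatids are often driven by the transcription factor CREM, whose binding site is the cAMP response element, TGACGTCA, or the shorter TGACGT within it.

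For Prm2 no promoter window was available. Promoters of Hspa1l and Slc30a4, which helped to choose these cells, and of another gene whose level follows are shown. They are the 250 bases before each gene's start, written 5′ to 3′ along the gene's strand, from RefSeq on assembly GRCr8, and capitals mark an element of TGACGTCA or TGACGT. The windows are chr20:3860224-3860473 for Hspa1l, chr3:130228889-130229138 for Slc30a4 and chr9:82044279-82044528 for Tnp1 (transition protein 1), all on the minus strand.
Hspa1l promoter: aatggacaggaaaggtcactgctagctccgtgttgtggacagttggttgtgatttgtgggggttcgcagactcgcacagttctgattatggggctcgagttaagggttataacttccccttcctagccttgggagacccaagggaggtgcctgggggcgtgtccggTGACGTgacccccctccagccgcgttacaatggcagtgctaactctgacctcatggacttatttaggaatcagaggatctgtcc
Slc30a4 promoter: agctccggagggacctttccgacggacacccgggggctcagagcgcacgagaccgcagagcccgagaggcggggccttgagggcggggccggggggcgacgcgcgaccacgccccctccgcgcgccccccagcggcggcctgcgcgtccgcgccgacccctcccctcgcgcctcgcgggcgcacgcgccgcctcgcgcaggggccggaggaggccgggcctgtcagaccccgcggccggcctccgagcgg
Tnp1 promoter: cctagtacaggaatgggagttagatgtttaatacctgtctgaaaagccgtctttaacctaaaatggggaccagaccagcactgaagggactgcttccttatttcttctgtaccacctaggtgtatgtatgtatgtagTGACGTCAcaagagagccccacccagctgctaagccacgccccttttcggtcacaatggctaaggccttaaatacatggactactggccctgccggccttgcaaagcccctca
The Tnp1 window held the full TGACGTCA and the Hspa1l window the shorter TGACGT, 84 bases before the start. The Slc30a4 window held neither. Of other windows looked at and not shown, those of Oaz3, Smcp and Kif27 held neither, and that of Spata32 held TGACGT on the other strand. Searched on both strands, TGACGTCA was found in 1.59% of all 33465 promoter windows and TGACGT in 6.95%. Among promoters of genes in the count tables the shares were 2.44% and 9.22% of 14205. Of the 20 genes with the highest level in the member cells relative to any other set, 14 had a window, and TGACGT was in 4 of these (28.6%), those of Frat1, Hspa1l, Spata32 and Tnp1. For the 15 most abundant genes it was in 3 of 17 windows (17.6%), those of Gpx4 and Tnp1. These matches are descriptions of the letters, and binding was not measured.

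The score placed the member cells between 2 neighbouring sets. For 1078 members (64.7%) the second-best set was that of Oaz3, Smcp and Odf1, genes of the sperm tail and the latest spermatids, and for 501 (30.1%) it was that of Tnp2, Cst13 and Prss58, where transition protein 2 peaks. The remaining 88 had another set second. The Tnp2 set held 1728 cells and the Oaz3 set 1190. In 545 members (32.7%) the score led the next set by under 0.25, and 522 cells outside lay within 0.25 of joining, so the class is a range without a sharp edge. The 50 members with the smallest lead and the 50 non-members closest to joining had Hspa1l at 776 and 809 CPM (counts scaled to a fixed total per library and set), Slc30a4 at 612 and 530 CPM and Prm2 at 21996 and 22378 CPM. Prm2 was detected in 100% of members, Hspa1l in 99.8% and Slc30a4 in 99.4%. In the spermatocyte set of Psma8, Piwil1 and Sycp3, cells before the haploid stage, the shares with a count were 70.3%, 14.9% and 9.23%, at a median of 32346 counts per cell against 32584 in the members. A count of Prm2 alone therefore did not separate the 2 kinds of cell.

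2 libraries stood apart. Of the 72 members in stressed replicate 1, 61 (84.7%) carried at least 3 of the listed macrophage markers, against 3.75% to 15.4% of members in the other 5 libraries. In that library 304 of all 409 cells did so, so this was not particular to the members. Among all cells of control replicate 2, 605 of 1801 did so, and in the remaining libraries from 185 of 2506 to 299 of 2342. The list counts Aif1, described below, and Apoe, which 49.97% of all members carried. Cd74, which chaperones MHC class II, was at 48.7 CPM there and at most 0.818 CPM elsewhere, and the immediate early gene Fos was at 47.0 CPM there and at most 1.86 CPM elsewhere. The summed macrophage list, with 22 genes found, was at 3973 CPM in that library and 1263 to 2329 CPM in the others. Csf1r and Ptprc, which define macrophages and white blood cells, were at 0 in it, and 2 of the 22 genes in all were at 0, against 4 to 14 in the others. Most of that sum was Aif1, a macrophage marker that the spermatid sets also carried, with means of 4279 CPM in the Tnp2 set, 1936 CPM in members and 993 CPM in the Oaz3 set. The 13 mitochondrially encoded genes, a list added after their values were seen, summed to 1431 CPM in it and 115 to 284 CPM elsewhere. The part of this signal in the results below was not tested, and values without that library stand beside the depth, gene and list results it moved most. Control replicate 3 had few members (80) and the fewest genes per member. Of 11742 distinct barcodes, 2 occurred in more than 1 library, and 0 of those belonged to a member.

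**Figure D1:**
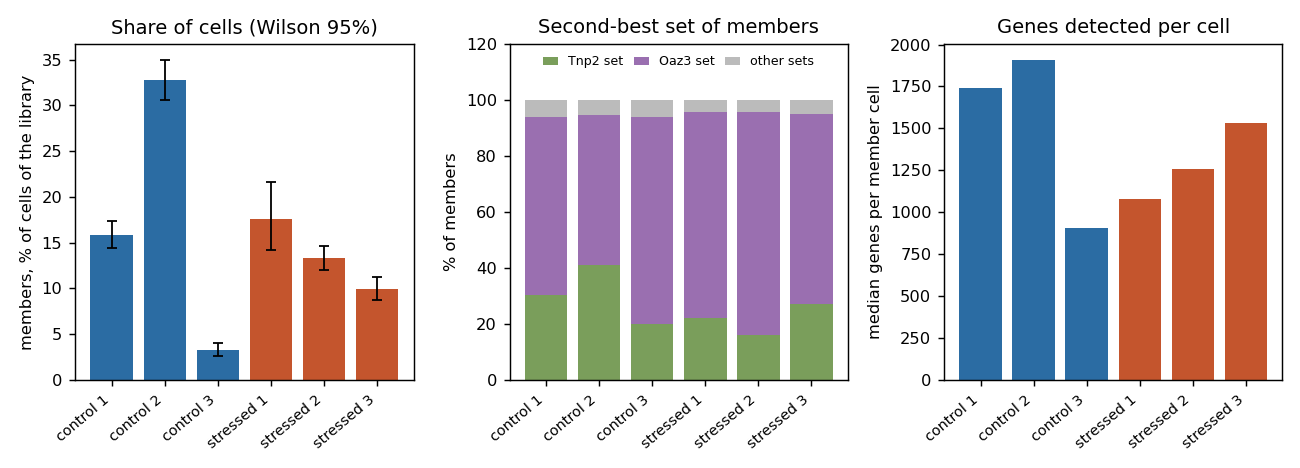
Left, share of each library's cells that joined the Prm2, Hspa1l and Slc30a4 set (bars, with Wilson 95% intervals). Middle, second-best set of the members as percent of members. Right, median number of genes detected per member cell. Control libraries are blue and stressed libraries orange in the left and right panels. The control shares run from 3.26% to 32.8% and enclose all 3 stressed shares.

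The members made up very different parts of the libraries. Their share was 15.8% in control replicate 1, 32.8% in control replicate 2 and 3.26% in control replicate 3, and 17.6%, 13.3% and 9.90% in stressed replicates 1, 2 and 3. The control libraries thus held both the lowest and the highest share, and the groups overlapped. The stressed mean was 13.6% ± 3.86 and the control mean 17.3% ± 14.8 (SD, n = 3 each), a difference of -3.69 percentage points (2-sided exact permutation test, p = 0.8; the smallest p this design allows is 0.1). Without control replicate 2 the difference was 4.05 points and without control replicate 3 it was -10.7 points, so its direction rested on single libraries. Leaving out all cells with at least 3 macrophage markers gave a difference of -9.25 points (exact permutation p = 0.7). Wilson 95% intervals of single libraries, which cover counting error only, were 2.63% to 4.04% in control replicate 3 and 30.6% to 35.0% in control replicate 2.

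Genes detected per member cell also varied more among libraries than between groups. The medians were 1738, 1908 and 904 genes in control replicates 1, 2 and 3 and 1081, 1260 and 1530 in stressed replicates 1, 2 and 3. The difference of -226 genes between group means did not pass (exact permutation test, p = 0.5). After each cell was thinned to 10000 counts the control medians were 1256, 1346.5 and 755 and the stressed medians 873.5, 1022 and 1185 genes, in the same order, a difference of -92.3 (exact permutation p = 0.7). No member had fewer counts than this. Median counts per member of the controls were 31729, 36210 and 31914.5, and those of the stressed libraries 37563, 29057 and 26487 (difference of -2249, exact permutation p = 0.6). That difference was -5512.5 without stressed replicate 1, when the groups no longer overlapped (exact permutation p = 0.1, the smallest this design allows), and 25.5 without stressed replicate 3. For genes per member it was -533 without control replicate 3 and -30.7 without control replicate 2.

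A small number of genes supplied much of the RNA in these cells. The 10 most abundant took 31.1% of counts on average (26.7% to 34.3% over the 6 libraries). The Tnp2 set stood at 24.8%, the Oaz3 set at 34.6% and the round spermatid set of Tssk5, Itih3 and Lrrc34 at 6.84%. An identifier with no paired symbol, ENSRNOG00000070067, alone held 140435 CPM in members, 92697 CPM in the Tnp2 set and 142420 CPM in the Oaz3 set. Prm1, protamine 1, was not found under that symbol. Levels below are CPM of counts summed over the cells of a set in each library, averaged over 6 libraries with equal weight. They are not scaled by gene length, so they compare a gene across cells and not one gene with another.

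Hspa1l and Slc30a4, which helped to choose the cells, had the clearest peaks. Hspa1l stood at 1351, 1551 and 765 CPM in members of control replicates 1, 2 and 3 and at 1474, 802 and 939 CPM in stressed replicates 1, 2 and 3. In the Tnp2 set its mean was 468 CPM and in the Oaz3 set 454 CPM, against 1147 ± 352 (SD, n = 6) in members, and it was higher in members in 6 of 6 libraries on both sides. Slc30a4 was at 1005, 1160 and 741 CPM in the controls and 838, 669 and 837 CPM in the stressed libraries, with means of 338 CPM in the Tnp2 set and 212 CPM in the Oaz3 set. Within each library both genes were higher in the class than on either side of it. As both chose these cells, this is part of the definition. Prm2 did not have this pattern. It was at 20636, 14425 and 33340 CPM in the controls and 17596, 27570 and 22650 CPM in the stressed libraries, and its means were 20417 CPM in the Tnp2 set, 22703 CPM in members and 23319 CPM in the Oaz3 set. Only 4 of 6 libraries had more Prm2 in members than in both neighbours, so the abundance of Prm2 alone did not set these cells apart from the later set.

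**Figure D2:**
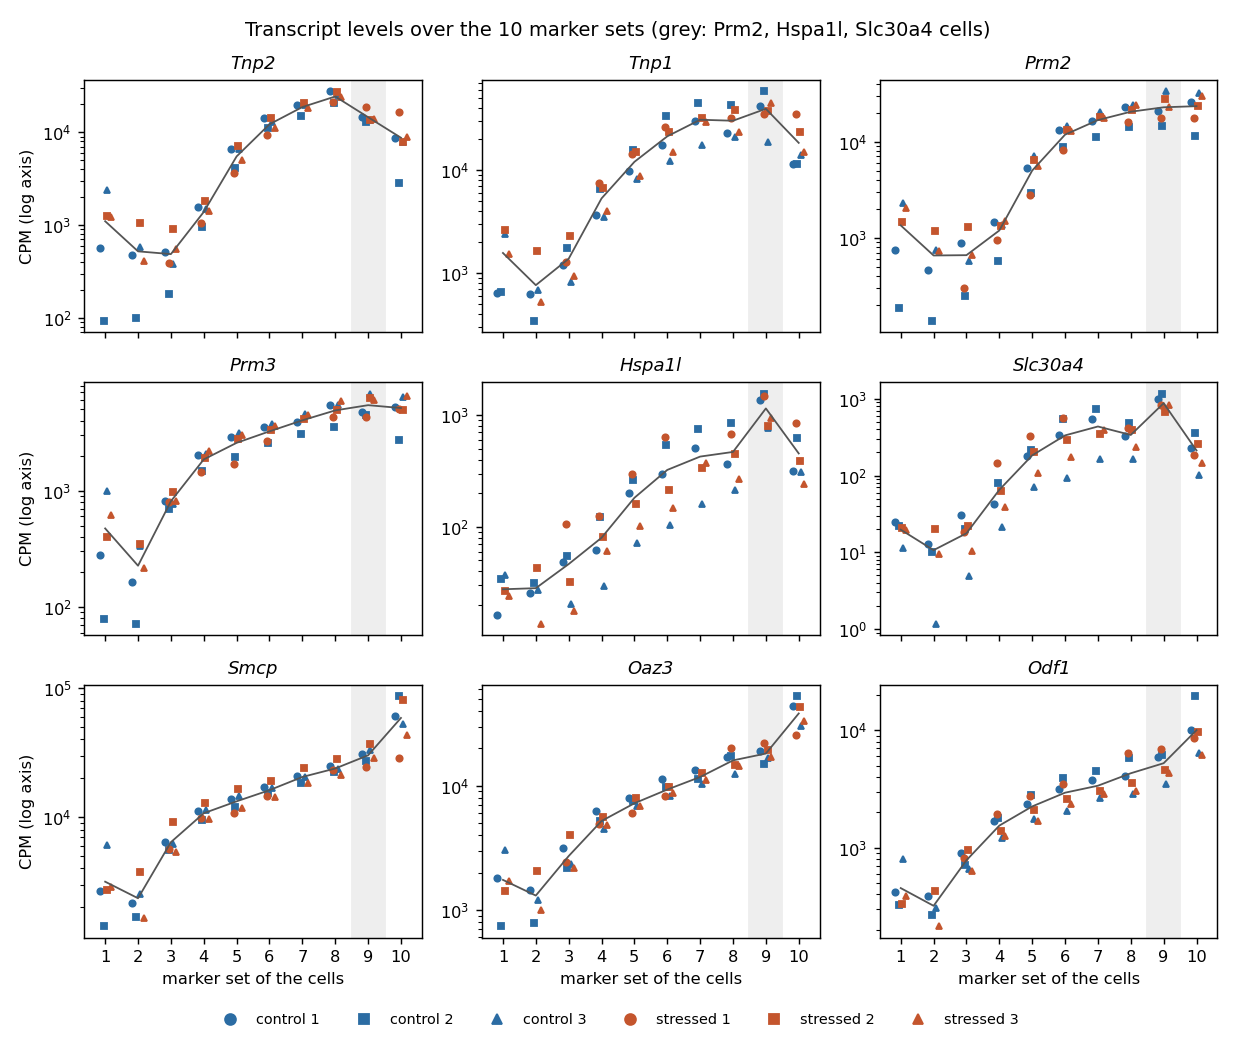
Levels of 9 genes over the 10 marker sets, in CPM on a log axis. Each point is 1 library (sets with at least 20 cells of that library), the line joins the means over libraries and the grey band marks the Prm2, Hspa1l and Slc30a4 cells. Hspa1l and Slc30a4 peak in the band, Tnp2 peaks in set 8, and Smcp, Oaz3 and Odf1 are highest in set 10.

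The 2 transition proteins differed in pattern. Tnp2, transition protein 2, was at 14669, 13022 and 13468 CPM in members of the controls and 18932, 13478 and 13817 CPM in members of the stressed libraries, in replicate order. It was lower than in the Tnp2 set (mean 24345 CPM) and higher than in the Oaz3 set (mean 8744 CPM) in 6 of 6 libraries. Tnp2 was a marker that chose the Tnp2 set, so its higher level there is part of the definition. Stressed replicate 1 differed least over the 3 sets, from 21158 to 18932 to 16586 CPM. Tnp1 was at 42554, 58668 and 18717 CPM in the controls and 35515, 37498 and 44672 CPM in the stressed libraries. It exceeded the Oaz3 set in 6 of 6 libraries but the Tnp2 set in 4 of 6, and control replicate 3, with the fewest genes per cell, had the lowest Tnp1. Prm3, a cytoplasmic protamine-like protein, was nearly level over the 3 sets at 4901, 5436 and 5136 CPM.

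The listed late genes lay both below and above the Oaz3 set. Of 19 measured genes of the elongating spermatid list, 6 were below it in 6 of 6 libraries and 5 above. The shares of all genes were 4.27% and 14.7%. Smcp, Oaz3 and Odf1 were among those below, and Tnp2 and Hspa1l among those above. These genes chose the members or a neighbouring set, so their direction is not a result. Smcp, a cysteine-rich protein of the mitochondrial capsule, was 23810 CPM in the Tnp2 set, 30126 CPM in members and 58692 CPM in the Oaz3 set. Oaz3, antizyme 3, which restrains polyamine synthesis, was 16011, 18179 and 38239 CPM in the same order. Odf1, of the outer dense fibres that stiffen the tail, was 4303, 5241 and 10011 CPM. These 3 genes chose the Oaz3 set, so their higher level there is part of its definition. Gapdhs, the sperm form of the glycolytic enzyme GAPDH, chose no set, and its level was 5191, 7928 and 10564 CPM, higher at both steps in 6 of 6 libraries. Akap4, the main protein of the fibrous sheath, was 1677, 2334 and 2448 CPM and Odf2 was 4591, 6030 and 6141 CPM. Both were above the Tnp2 set in 6 of 6 libraries and near the level of the Oaz3 set. Gpx4, a selenium peroxidase of the mitochondrial capsule, was 7479, 8628 and 8041 CPM.

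**Figure D3:**
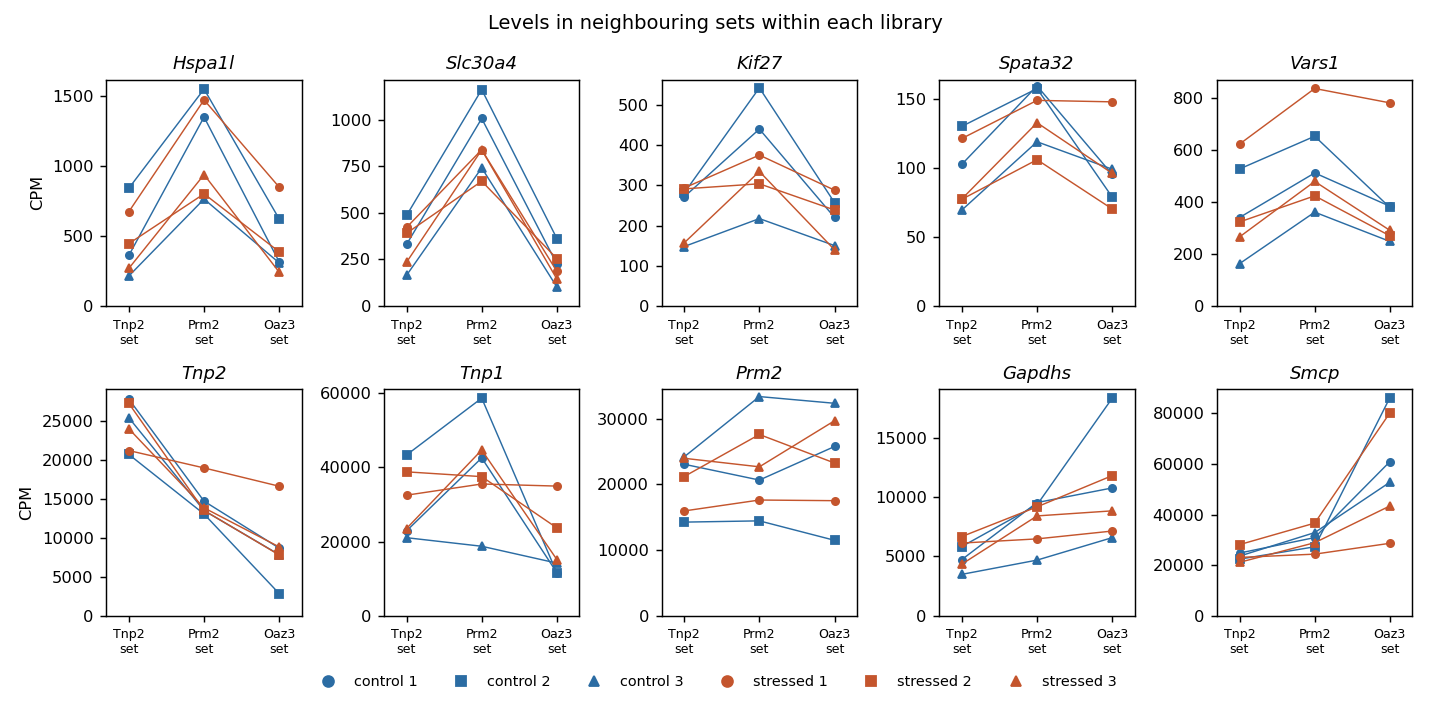
Levels of 10 genes in the Tnp2 set, the Prm2, Hspa1l and Slc30a4 cells and the Oaz3 set, in CPM, with 1 line per library. Hspa1l, Slc30a4, Kif27, Spata32 and Vars1 are highest in the middle set in every library shown, Tnp2 is lower at each step, Gapdhs and Smcp are higher at each step, and Prm2 has no shared direction.

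Other genes than the markers also had their highest mean in the members. They were ranked by the ratio of the member mean to the highest mean of any other set, among genes with at least 100 CPM in members. Hspa1l led at 2.45 times, followed by Slc30a4 at 2.01 times. The next, which the rule had not used by name, were lower: Socs7, an adaptor that damps cytokine signalling, at 1.52 times, Kif27, a kinesin-like protein linked to cilia, at 1.51 times, and Pwwp2b, a chromatin reader, at 1.45 times. Kif27 was at 369 ± 113 CPM in members and at 240 and 215 CPM in the Tnp2 and Oaz3 sets, and was higher in members than in both in 6 of 6 libraries. The same 6 of 6 held for Spata32 (137 CPM, against 96.5 and 98.0 CPM), Vars1, the valyl-tRNA synthetase (545 CPM, against 374 and 393 CPM), and Frat1, a regulator of Wnt signalling (268 CPM, against 158 and 117 CPM). Socs7 reached only 5 of 6 on either side, with a lowest library at 37.1 CPM. Further down were Gpd2, the mitochondrial glycerol phosphate dehydrogenase, at 1.29 times, Tnp1 at 1.28 times and Rnf133, a testis ubiquitin ligase, at 1.23 times. Of 3697 genes with a mean of at least 10 CPM in the Tnp2 set, the members or the Oaz3 set, 197 (5.33%) had their highest mean of all 10 sets in the members. Above the Tnp2 set in 6 of 6 libraries were 5.63% and below it 27%, and above the Oaz3 set 14.7% and below it 4.27%.

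By gene group, chromatin genes were mostly highest in earlier sets, as were most genes. Of the 10 measured genes for testis histones and chromatin condensation, 8 had their highest mean in the 7 earlier sets, beside 79.7% of all 3697 genes. In that list 3 were below the Tnp2 set in 6 of 6 libraries and 1, Ing2, was above it, beside the 27% and 5.63% of all genes. Hils1, a spermatid linker histone, was 918 CPM in the Tnp2 set, 279 CPM in members and 162 CPM in the Oaz3 set. Fhl5, a coactivator of CREM, was 1053, 566 and 340 CPM in the same order. Crem itself was low at 33.2 CPM in members and stood at 591 CPM in the round spermatid set.

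Tail genes lay on both sides of the Tnp2 set. The list of outer dense fibres and fibrous sheath had 23 measured genes. In 6 of 6 libraries 5 of them were above the Tnp2 set and 8 below, beside 5.63% and 27% of all genes. Those above were Gapdhs, Odf2, Odf1, Akap4 and Cabyr, of which Odf1 chose the Oaz3 set. Among those below were Ropn1l, a sheath-associated protein, at 2230 CPM in the Tnp2 set and 801 CPM in members, and Cylc2, a cytoskeletal protein of the head, at 2149 and 1347 CPM. Against the Oaz3 set 7 were higher and 4 lower, beside 14.7% and 4.27% of all genes. In the mitochondrial sheath list, 3 of 16 were above the Tnp2 set in 6 of 6 libraries, beside 5.63% of all genes. These were Smcp, which chose the Oaz3 set, Gpx4 and Spata18.

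Among heat shock and zinc genes, Hspa1l and Slc30a4 were above the Tnp2 set by the choice of the cells. None of the other 4 measured genes of the HSP70 and HSP110 family was above either neighbour in 6 of 6 libraries. Hspa4l was level at 1307, 1383 and 1385 CPM, and Hspa2, which serves meiosis, was at 19.6 CPM in members and 1235 CPM in the Psma8 set. Of 6 measured zinc transporters and metallothioneins, Slc30a4 included, no other was above the Tnp2 set in 6 of 6 libraries. In 6 of 6 libraries 4 were below it, beside 27% of all genes. Slc39a13, a zinc importer, was 205 CPM in the Tnp2 set and 84.5 CPM in members.

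Stored-message and energy genes followed. Ybx2, which holds stored messages in germ cells, was 343, 549 and 403 CPM in the Tnp2 set, members and Oaz3 set, higher in members in 5 of 6 libraries against each. Fxr1, an RNA-binding protein that activates translation in spermatids, was 2516, 3195 and 3441 CPM and Pabpc1, the general poly(A)-binding protein, 208, 220 and 258 CPM, far under the 8209 CPM of the round spermatid set. Of 12 glycolytic genes, Gapdhs alone was above the Tnp2 set in 6 of 6 libraries, beside 5.63% of all genes. Against the Oaz3 set 0 of the 12 were above and 5 below in 6 of 6 libraries, beside 14.7% and 4.27%. Pgk2, the sperm phosphoglycerate kinase, was 906, 1025 and 1546 CPM, whereas Ldhc, the sperm lactate dehydrogenase, had means of 1180, 958 and 701 CPM. Among ubiquitin-system genes Ube2j1, an enzyme of protein quality control, was 1004, 1262 and 1159 CPM.

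The members were not uniform. Members with the Tnp2 set second had Tnp2 at 23765 CPM against 10631 CPM in members with the Oaz3 set second, and Smcp at 24519 against 33013 CPM, a difference the second-best set itself fixes. Some of the genes looked at that chose neither set also differed in 6 of 6 libraries. Tnp1 was higher on the Tnp2 side (45630 against 37014 CPM). Lower on it were Prm2, which helped to choose the members (18580 against 24665 CPM), Gapdhs (6603 against 8667 CPM), Akap4 (1918 against 2591 CPM), Vars1 (463 against 594 CPM) and Rai14 (776 against 1044 CPM). Others, such as Kif27 and Hmgb4, had no shared direction, and the share of all genes that differed was not counted. The Tnp2 side held only 16 cells in control replicate 3 and 16 in stressed replicate 1, under the minimum of 20 used for other sums. Hspa1l was close on both sides at 1131 and 1190 CPM.

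Some levels went with the number of genes per cell across libraries and others did not. Pearson's r between a gene's level in members and the median genes per member was computed for 17 genes over the 6 libraries. It was above 0.5 for 8 of them, below -0.5 for 3 and between for 6. The highest values were 0.92 for Tnp1 and 0.88 for Ybx2, and the lowest -0.71 for Hmgb4, a testis high-mobility-group protein, and -0.69 for Prm2. Gsg1 (0.08), Gpx4 (0.11) and Smcp (-0.21) lay near 0, and Slc30a4 was at 0.83 and Hspa1l at 0.56. These are descriptions over 6 points that share a library's depth and preparation, and they carry no test.

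No gene passed the test between stressed and control members. Counts summed over the members of each library were compared with edgeR's quasi-likelihood test. At an adjusted p under 0.05, 0 of 6813 genes (0%) were called, and 94 (1.38%) had an unadjusted p under 0.05, 42 of them (0.616%) higher and 52 (0.763%) lower in stressed libraries. DESeq2 called 1 gene (0.0147%), and edgeR without the filter on low counts called 8. In bulk sums of this kind a change in RNA per cell and a change in which cells joined the set cannot be told apart. Values that follow are CPM scaled by edgeR's TMM factors, so they differ from the unscaled levels above, and overlap of groups is judged on the scaled values.

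No difference between stressed and control members passed in the late genes. Hspa1l, Slc30a4 and Prm2 chose these cells, and Tnp2, Oaz3 and Smcp chose the sets they were separated from, so the values of these 6 genes are given as a description. Hspa1l was at 1247, 1541 and 759 CPM in the controls and 1375, 886 and 1021 CPM in the stressed libraries, which overlap (log2 change -0.11, SE 0.27). Slc30a4 was at 928, 1153 and 735 CPM and at 782, 739 and 910 CPM, also overlapping (log2 -0.21, SE 0.22). Tnp2 was at 13534, 12936 and 13363 CPM in the controls and 17659, 14885 and 15013 CPM in the stressed libraries. Its groups did not overlap, as was so for 8.41% of all genes tested and, with the stressed side higher, for 4.18% (log2 0.26, SE 0.17). Oaz3 likewise did not overlap, at 17427, 14771 and 16463 CPM and 20652, 21549 and 18549 CPM (log2 0.32, SE 0.17). In unscaled CPM the groups of both genes overlapped, so their separation rested on the scaling. Unscaled, Tnp2 was at 14669 CPM in control replicate 1 and 13817 CPM in stressed replicate 3. Oaz3 was at 18889 CPM in control replicate 1 and 17072 CPM in stressed replicate 3. Prm2 (log2 0.11, SE 0.31) and Smcp (0.10, SE 0.22) overlapped. Tnp1 (0.08, SE 0.34), Akap4 (0.07, SE 0.21) and Gapdhs (0.15, SE 0.28), which chose no set, overlapped too, and their edgeR adjusted p was 0.999 each. Without stressed replicate 1 the log2 changes were -0.33 for Hspa1l, 0.16 for Tnp2, 0.31 for Prm2, 0.28 for Smcp, 0.20 for Tnp1 and 0.33 for Gapdhs.

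The gene with the smallest p was AABR07001902.1, a name of a clone-based gene model. It was at 0.824, 1.93 and 2.80 CPM in the controls and 40.5, 28.7 and 16.5 CPM in the stressed libraries, on 66 and 528 counts in all. Every stressed library was above every control library (log2 change 4.03, SE 0.64, edgeR adjusted p = 0.353). DESeq2 gave an adjusted p of 1.18e-07 and edgeR without the filter 3.83e-04 for it. The other 7 genes called without the filter were Slamf9, Ifitm2, Cd74, Pf4, Mt-atp6, Rel and Cybb. Slamf9, Rel and Cybb had counts in stressed replicate 1 alone, with 67, 66 and 81 counts, and Ifitm2 and Cd74 had 146 and 148 counts there against at most 17 in any other library.

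**Figure D4:**
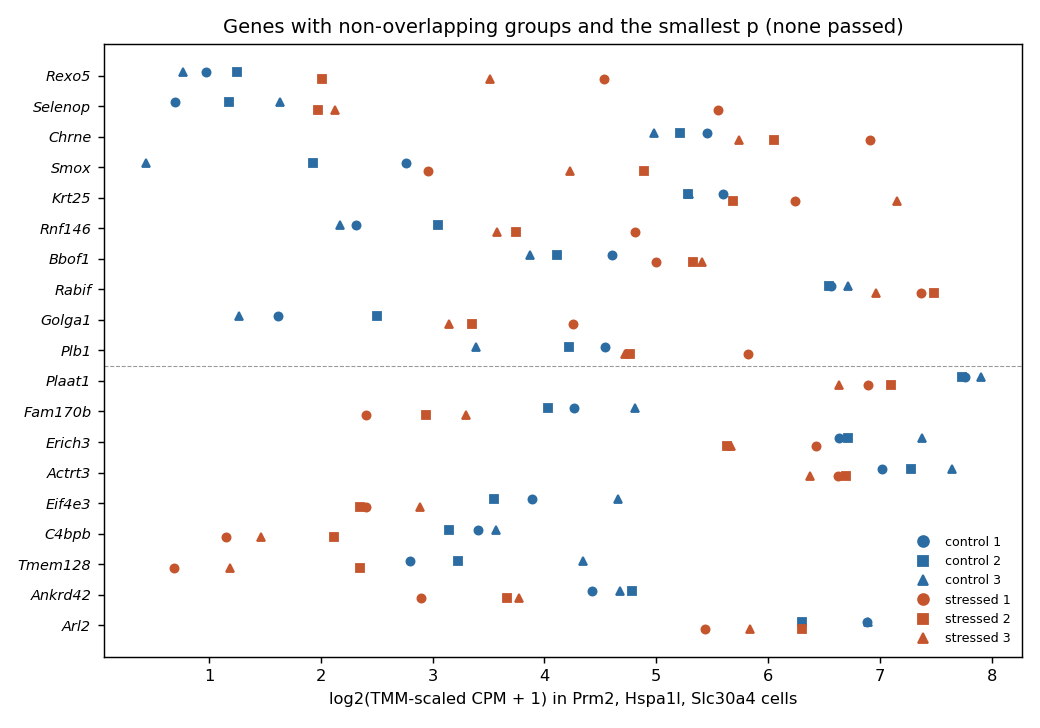
TMM-scaled levels in the member cells, as log2(CPM + 1), of 10 genes higher and 9 lower in stressed libraries, from the 10 on each side with the smallest p among those with a mean of at least 5 CPM and groups that do not overlap. Each point is 1 library. None passed at an adjusted p under 0.05, and in Selenop stressed replicate 1 lies far above the other 2 stressed libraries.

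By a fixed rule the 20 nearest genes were taken, of which 19 are reported, each with an edgeR adjusted p of 0.999. Higher in stressed libraries were Rexo5, Selenop, Chrne, Smox, Krt25, Rnf146, Bbof1, Rabif, Golga1 and Plb1. Rabif, a guanine nucleotide exchange factor-like protein, was at 93.4, 92.2 and 104 CPM in the controls and 164, 178 and 124 CPM in the stressed libraries (log2 0.69, SE 0.25). Bbof1, a basal body protein, was at 23.3, 16.3 and 13.7 CPM and at 31.0, 39.2 and 41.5 CPM (log2 1.06, SE 0.38). Smox, spermine oxidase, which breaks down polyamines, was at 5.77, 2.81 and 0.350 CPM and at 6.75, 28.7 and 17.8 CPM (log2 2.50, SE 0.82). Its lowest stressed value came from stressed replicate 1. Selenop, the plasma selenium carrier, was at 46.0 CPM in that library and 2.94 and 3.37 CPM in the other 2 stressed libraries. Without stressed replicate 1 its log2 change went from 3.80 to 1.31, that of Chrne from 1.11 to 0.68 and that of Plb1 from 1.10 to 0.62. Scored without Slc30a4, the members gave a log2 change of 0.0314 for Bbof1 and 0.33 for Rabif, and with standardisation within each library Bbof1 was at 0.34, so these 2 changes depended on how the cells were chosen.

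Lower in stressed libraries were Plaat1, Fam170b, Erich3, Actrt3, Eif4e3, C4bpb, Tmem128, Ankrd42 and Arl2. Plaat1, a phospholipid-modifying acyltransferase, was at 216, 212 and 238 CPM in the controls and 118.1, 136 and 98.6 CPM in the stressed libraries (log2 -0.92, SE 0.23), with narrow groups that did not overlap, as was so on this side for 4.23% of genes. Actrt3, a testis actin-related protein, was at 128, 154 and 199 CPM and at 97.9, 103 and 81.9 CPM (log2 -0.77, SE 0.26). Erich3, a cilium-linked protein, was at 98.6, 104 and 165 CPM and at 85.3, 48.6 and 50.03 CPM (log2 -1.003, SE 0.33). Arl2, a small GTPase that regulates tubulin folding, was at 117, 78.0 and 117.8 CPM and at 42.3, 77.8 and 56.1 CPM, with control replicate 2 and stressed replicate 2 nearly equal. These values also moved with the choice of cells. With standardisation within each library Plaat1 was at -0.29, Erich3 at -0.44 and Actrt3 at -0.49, and scored without Slc30a4 they were at -0.65, -0.33 and -0.51.

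With the filter on low counts, edgeR called no gene in any list, and without it edgeR called 1 gene of the macrophage list (Cd74, edgeR adjusted p = 0.0286) and 1 of the mitochondrially encoded genes (Mt-atp6, edgeR adjusted p = 0.0437). DESeq2 called none in them. The 4 transition protein and protamine genes had a median log2 change of 0.13 (4 of 4 higher), beside 0.04 over all genes tested. Prm2 helped to choose the members and Tnp2 the Tnp2 set, so the values of this list are a description. Leaving out 1 library at a time gave log2 changes of -0.26 to 0.48 for Tnp1 and -0.15 to 0.50 for Prm2. Tnp2 and Prm3 stayed higher in stressed libraries each time. Odf1, in the outer dense fibre list that follows, chose the Oaz3 set. The 24 outer dense fibre and fibrous sheath genes had a median of -0.01 (11 of 24 higher), the 31 acrosome genes -0.13 (13 of 31 higher), the 28 genes of message storage and translation 0.06 (17 of 28 higher) and the 16 glycolytic genes 0.13 (11 of 16 higher). Of 268 distinct genes tested in the 16 spermatid lists, 3 (1.12%) had an unadjusted p under 0.05, beside 1.38% of all genes, namely Smox, Tekt5 and Ube2d2. Tekt5, a tektin of the tail, was at 25.2, 32.1 and 19.3 CPM in the controls and 11.97, 13.4 and 12.7 CPM in the stressed libraries (log2 -1.01, SE 0.41, edgeR adjusted p = 0.999).

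Stress-hormone genes were scarce in these cells. Nr3c1, the glucocorticoid receptor, was at 2.26, 1.55 and 0 CPM in the controls and 0.307, 7.54 and 5.93 CPM in the stressed libraries (log2 1.76, SE 1.26, edgeR adjusted p = 0.999). Fkbp5, a target of that receptor, had 23 counts in the controls and 2 in the stressed libraries, and Tsc22d3, another target, had 0 and 2, so neither was tested. The 6 tested genes of the receptor and its targets had a median log2 change of 0.07, with 3 higher.

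The median of 2 lists was well above that of all genes with stressed replicate 1 and close to it without. All 8 tested macrophage genes were higher with a median log2 change of 1.66, and without that library 4 of 8 were higher with a median of 0.00. The 12 mitochondrially encoded genes were all higher with a median of 1.53, and without it 8 of 12 were higher with a median of 0.16. The immediate early genes had a median of 0.88 over 5 genes and of -0.47 over 6 genes without it. Over all genes the median was 0.02 without that library.

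The change with stress was also tested against the same change in the neighbouring sets, with the library as a block. Against the Tnp2 set 0 of 8803 genes differed at an adjusted p under 0.05 (104, or 1.18%, at an unadjusted p under 0.05), and against the Oaz3 set 0 of 8803 (345, or 3.92%). The smallest p was that of Zfr, an RNA-binding zinc finger protein. It was at 43.0 ± 11.4 CPM in control and 39.9 ± 23.6 CPM in stressed members, and at 10.8 ± 5.80 and 39.5 ± 27.4 CPM in the Oaz3 set (SD, n = 3 libraries each). The difference of its log2 changes was -1.86 (SE 0.48, edgeR adjusted p = 0.988). Actr10, a dynactin subunit, was at 284 ± 79.6 and 183 ± 26.1 CPM in members and at 80.6 ± 31.0 and 148 ± 60.0 CPM in the Oaz3 set (difference -1.30, SE 0.39, edgeR adjusted p = 0.988). Efcab15 was at 131 ± 32.6 and 90.5 ± 20.1 CPM in members and at 47.9 ± 25.8 and 97.4 ± 41.2 CPM in the Oaz3 set (difference -1.45, SE 0.37). In each of these 3 genes control members held more than control cells of the Oaz3 set, and the stressed means of the 2 sets lay closer together. Erich3 shared this, at 126 ± 35.1 and 60.5 ± 26.8 CPM in control and stressed members. In the Oaz3 set it was at 23.4 ± 13.0 and 42.5 ± 39.0 CPM (difference -1.59, SE 0.49, edgeR adjusted p = 0.988). Elf2 and Chmp1a went the other way. Elf2 was at 16.8 ± 17.9 and 27.3 ± 3.02 CPM in members and at 38.1 ± 22.7 and 19.6 ± 5.75 CPM in the Oaz3 set (difference 2.27, SE 0.72). Chmp1a was at 11.9 ± 7.38 and 21.1 ± 6.54 CPM in members and at 23.8 ± 7.70 and 9.89 ± 1.54 CPM in the Oaz3 set (difference 2.29, SE 0.75). Against the Tnp2 set Stambp, a deubiquitinating enzyme, was at 5.86 ± 2.10 and 1.43 ± 1.34 CPM in members and at 1.69 ± 0.887 and 5.06 ± 2.53 CPM in the Tnp2 set (difference -4.04, SE 1.44, edgeR adjusted p = 1). Most of the other genes with the smallest p rested on a group with few or no counts.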

How the data were processed

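Single-cell RNA libraries of rat testis from 3 control and 3 stressed animals were analysed. Per the labels' protocols, minced tissue was digested to single cells, captured in a microfluidic device (Singleron GEXSCOPE) and sequenced as paired ends. Aligner, counter, genome build and filter on cells: not given in the sources used here. Nor do they say if counts are reads or molecules. The authors deposited whole-number counts per gene and cell, and normalized values in natural log units, which equal the natural log of 1 plus counts scaled to 10000 per cell (0 values differed by more than 1e-09). The natural log values served only to choose the cells.

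The members and the gene lists were chosen with earlier results of these data known. Counts were summed per library and set if at least 20 cells of the library were in it, which all 6 libraries met for the 3 late sets. Sums were tested with edgeR 4.0.16 in R 4.3.3 (TMM, filterByExpr, robust quasi-likelihood, Benjamini-Hochberg over all genes tested), first on simulated data. DESeq2 1.42.0 was an alternative. Shares and medians of libraries were compared with exact permutation tests that listed every split of the libraries. Wilson intervals came from scipy 1.17.1. Named genes were the markers, the 15 most abundant and the 20 with the highest ratio to other sets, for stress the 10 on each side with the smallest p among those with a symbol, at least 5 CPM and groups that do not overlap, for the difference between sets the 5 on each side with the smallest p, and fixed genes looked up in any case. Of the 20 genes chosen for stress, 1 is not reported here. Log2 ratios between sets used CPM plus 1. Scrublet in scanpy 1.11.5 called 73 cells doublets (0.622%), 7 of them members, and these were kept. Pairs of libraries of one group differed far beyond sampling noise (chi-square of 19.3 to 88.2 for each degree of freedom), so none was a copy of another.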

Additional observations from a re-analysis of the deposited data

How the results depend on the processing

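Alternatives covered scaling, gene filter, test, membership rule, doublets, cells with macrophage markers, the block and each library left out. Of 46 alternative values for shares and depth, 44 kept their direction, and with a smallest p of 0.1 none of them could pass. Of 47 counts of genes called, 45 stayed at 0. The number of genes called went from 0 to 8 without the filter on low counts and to 1 with DESeq2. Leaving out 1 library moved the difference in share from -10.7 to 4.05 points, in median counts from -5512.5 to 25.5 and in median genes from -533 to -30.7, and the number of genes called stayed at 0. Of 1088 values for single genes, 1047 kept direction and side of the threshold, though some moved much in size, 2 passed (AABR07001902.1, without the filter and with DESeq2) and 39 changed sign. None of the sign changes was in a gene that passed, and their cause was not tested. With standardisation within each library the log2 changes of Tnp1, Prss58, Odf1, Akap4 and Gapdhs were -0.0426, 0.42, -0.0331, -0.11 and -0.0306. Scored without Slc30a4, Tnp1 was -0.0194 and Prss58 0.14. Scored without Hspa1l, Cst13 was -0.0126, Prss58 0.24 and Akap4 -0.0305. Scored without Prm2, Prss58 was 0.19. With a lead of at least 0.25, Cst13 was -0.17, Akap4 -0.0396 and Pgk2 -0.0196. Without the filter, Cst13 was -0.0131 and Akap4 -0.00132. Without cells with at least 3 macrophage markers, which left stressed replicate 1 out for having under 20 members, Cst13 was -0.0190 and Odf1 -0.0762. Leaving out 1 library at a time gave log2 changes of -0.26 to 0.48 for Tnp1, -0.15 to 0.50 for Prm2, -0.37 to 0.0941 for Hspa1l, -0.17 to 0.16 for Cst13, -0.46 to 0.19 for Prss58, -0.12 to 0.28 for Smcp, -0.10 to 0.25 for Odf1, -0.0955 to 0.23 for Akap4, -0.11 to 0.33 for Gapdhs, -0.0446 to 0.28 for Ldhc and -0.57 to 0.17 for Ybx2. The labels do not say whether the same replicate numbers pair the animals. Deviations of same-numbered libraries correlated at -0.044, -0.035 and -0.037, and those of differently numbered libraries at 0.0027 to 0.038. With so few libraries these values cannot show whether the animals were paired. With the replicate block 0 genes were called, 70 had an unadjusted p under 0.05, Ybx2 was at 0.0583, the share difference stayed -3.69 (exact paired permutation p = 1, smallest 0.25), and it changed no other call. The shares of single libraries and the 72 and 80 members of stressed replicate 1 and control replicate 3 limit the precision, and genes with under about 5 CPM in them rest on few counts.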

Other observations

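Markers of testis cell types other than germ cells were found in the members at levels that differed by list. Of these lists the macrophage list had the largest sum (a mean of 2115 CPM, 1263 to 3973 CPM over the libraries, most of it Aif1). The round spermatid list, of germ cells, had a larger mean sum of 3127 CPM. These sums hold different genes and are not scaled by gene length. The 13 stromal genes found summed to 97.4 CPM in stressed replicate 1 and to 0.706 to 5.69 CPM in the other 5 libraries, and the 9 T and natural killer cell genes summed to 3.39 to 18.1 CPM over all 6. The 13 Sertoli genes summed to 56.5 to 98.9 CPM, with 2 of them (Amh and Dhh) at 0 in all 6 libraries. The 11 Leydig genes summed to 2.47 to 22.4 CPM, with 3 at 0 in all (Cyp11a1, Hsd17b3 and Nr5a1), and the 11 endothelial genes to 3.39 to 16.1 CPM, with 3 at 0 (Pecam1, Cdh5 and Tie1). The 10 peritubular myoid genes had a mean sum of 61.6 CPM (29.4 to 86.6 CPM), above the mean of each other set, and Actg2 (28.4 CPM), Myh11 (15.2 CPM) and Acta2 (13.0 CPM), genes of smooth muscle contraction, made up most of it, with Cnn1 at 0.

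The testis-specific serine kinases, which act in sperm maturation, had nearly the same sum in the Tnp2 set, the members and the Oaz3 set (6453, 6502 and 6507 CPM), while single genes differed in opposite directions. Tssk6 was 944, 1162 and 1581 CPM and Tssk1b 1468, 932 and 810 CPM.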
